A study of Mus musculus with 9 samples.

Results

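Proteasome genes were followed across 3 groups of cultured mouse macrophages by RNA sequencing. A gene was taken when its symbol began with Psma, Psmb, Psmc or Psmd and a number. Of 44 such symbols, the 3 immunoproteasome genes Psmb8, Psmb9 and Psmb10 and 5 names marked as pseudogenes were set aside, which left 36 of the 28379 genes of the table. All 36 passed the filter on low counts and were tested. By role, 31 of them encode subunits of the standard 26S proteasome, 3 (Psmd5, Psmd9 and Psmd10) encode chaperones that help to build its regulatory particle, Psma8 encodes an alpha subunit of the testis, and Psmc3ip only shares the name and encodes a factor of meiotic recombination.

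The cells were primary bone marrow-derived macrophages (BMDMs) from 10-week-old C57BL/6J mice, labelled C57BL/6, the precursors that RANKL, the cytokine of osteoclast formation, drives towards osteoclasts. All groups were kept in M-CSF at 20 ng/ml, a growth factor of macrophages, and were collected at 48 h. No RANKL was given to the PBS group. The RANKL group was treated with 100 ng/ml of it. Cells of the RANKL + Vit D + K group had the same RANKL combined with vitamin D (calcitriol, its active form) at 1000 nM and vitamin K (menaquinone-4, MK4). The labels give vitamin K at 20 μM, while the methods of the study give a higher dose. No group received 1 vitamin alone, so the part of each vitamin cannot be told apart. Each group had 3 libraries. The labels do not say whether these came from separate mice or cultures, and the methods speak of pooled RNA, so the p-values measure the spread between these libraries, which may be technical.

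The 26S proteasome is the machine that degrades proteins tagged with ubiquitin. Its barrel, the 20S core, has outer rings of alpha subunits that gate the entry and inner rings of beta subunits, of which Psmb5, Psmb6 and Psmb7 carry the chymotrypsin-like, caspase-like and trypsin-like cutting sites. The 19S regulatory particle caps the barrel: a base with a ring of ATPases (Psmc1 to Psmc6) unfolds substrates, Psmd1, Psmd2 and Psmd4 hold or bind ubiquitin and its carriers, and a lid with the deubiquitinase Psmd14 removes the ubiquitin chain. The transcription factor NRF1 (gene Nfe2l1) is known to raise the subunit genes together when the proteasome is impaired, and in RANKL signalling the proteasome removes the inhibitor of NF-κB.

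The total count was between 65915112 and 68229647 per library, so depth was close to equal, and the TMM factor, which corrects for differences in composition, was between 0.891 (RANKL + Vit D + K 1) and 1.11 (RANKL 2). All 8 macrophage markers listed for the check were detected, and their summed FPKM was 26410 to 30650 with PBS, 16670 to 24300 with RANKL and 4533 to 11580 with RANKL + Vit D + K. Taken singly, by the test used below, 1 of the 8 was lower with RANKL than with PBS, where 1.26% of all genes were. With the vitamins against RANKL, 6 were lower and 1 was higher, where 17.2% and 16.4% of all genes were. The summed FPKM of 8 osteoclast markers was 13.7 to 21.1, 472 to 996 and 51.7 to 85.6 in the same order, and that of 8 neutrophil markers was 10.8 to 124, 10.7 to 141 and 0.551 to 1.72. In bulk RNA, fewer cells of a type and less RNA per cell cannot be told apart, and the part of these shifts in the results below was not tested.

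The upstream sequences of 4 subunit genes are shown because these genes span the outcomes described below. Psmd8, Psmc6 and Psmb6 were the subunits with the largest rises over RANKL under the vitamins, and Psmb5 was the beta subunit whose fitted change was closest to 0. The sequences are the RefSeq bases of GRCm38.p6 before the transcription start, 5′ to 3′ on the strand of the gene, and they were shortened where the gene, as annotated in the table, began earlier. Psmb5 lies on the minus strand (chr14:54618023-54618245), Psmb6 on the plus strand (chr11:70525107-70525356), Psmc6 on the plus strand (chr14:45329574-45329787) and Psmd8 on the minus strand (chr7:29180674-29180923). In the first 3, capitals mark the core of the antioxidant response element (ARE), TGACNNNGC on either strand, to which NRF1 and its relative NRF2 bind with small MAF proteins. In Psmd8, where no such core was found, capitals mark a GC box, GGGCGG.
Psmb5: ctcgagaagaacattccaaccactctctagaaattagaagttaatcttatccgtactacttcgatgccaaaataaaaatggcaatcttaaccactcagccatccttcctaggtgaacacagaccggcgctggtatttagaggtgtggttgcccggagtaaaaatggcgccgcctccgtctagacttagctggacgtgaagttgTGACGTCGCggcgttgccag
Psmb6: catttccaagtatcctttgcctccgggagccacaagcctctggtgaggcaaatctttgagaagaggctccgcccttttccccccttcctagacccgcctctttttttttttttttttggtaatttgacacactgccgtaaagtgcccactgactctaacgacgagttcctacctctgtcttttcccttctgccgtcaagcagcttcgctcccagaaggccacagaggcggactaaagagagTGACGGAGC
Psmc6: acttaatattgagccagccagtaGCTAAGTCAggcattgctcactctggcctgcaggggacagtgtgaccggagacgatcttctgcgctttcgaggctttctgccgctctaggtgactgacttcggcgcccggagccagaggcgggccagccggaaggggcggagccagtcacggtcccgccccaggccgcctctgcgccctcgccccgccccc
Psmd8: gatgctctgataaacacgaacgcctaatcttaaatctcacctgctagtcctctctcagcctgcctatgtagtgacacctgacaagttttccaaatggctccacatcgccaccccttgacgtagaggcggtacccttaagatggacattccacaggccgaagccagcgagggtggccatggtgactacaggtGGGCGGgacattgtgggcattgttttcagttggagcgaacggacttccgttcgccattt

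The first comparison asked how RANKL alone changed the proteasome genes. Of the 36 genes, only Psmd10 passed the test (quasi-likelihood test of edgeR, p adjusted by Benjamini-Hochberg over 17002 genes, threshold 0.05), and it was higher. None was lower. Over all genes tested, 2.35% were higher and 1.26% were lower at this threshold. An unadjusted p under 0.05 was found for 9 of the 36 genes, and for 18.6% of all genes tested. DESeq2 in place of edgeR called 3 genes higher, where it called 1056 of all genes higher and the main fit 400. Without PBS replicate 3 no gene passed, where 96 of all genes were higher. Without RANKL + Vit D + K replicate 2, which shares in the estimate of the spread, 4 genes passed, where 972 of all genes were higher. The fitted log2 fold change was positive for 30 of the 36 genes, with a median of 0.21 against -0.04 for all genes tested. Without RANKL replicate 2 the median was 0.12, against -0.03 for all genes. After TMM scaling, that library was the highest RANKL library for 34 of the 36 genes and for 35.7% of all genes. In FPKM, fragments scaled to gene length and library size, 26 of the 36 genes lay higher in every RANKL library than in every PBS library and none lay lower, where 22.4% and 12.9% of all genes did so. FPKM carries no TMM factor, and that factor was 1.04 to 1.11 in the RANKL libraries and 0.963 to 0.993 in the PBS libraries. Psmb1 was the only gene of these 26 with a negative fitted log2 fold change, at -0.01. Its FPKM was 21.7, 22.2 and 21.9 with PBS against 23.6, 25.2 and 22.2 with RANKL.

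Psmd10, known as gankyrin, is a chaperone that binds the ATPase Psmc4 while the base is built. Its gene (X chromosome, 140948429 to 140956728, minus strand, GRCm38) had 18.1, 17.5 and 17.1 FPKM with PBS, 32.9, 43.8 and 30.6 FPKM with RANKL, and 15.9, 18.8 and 17.1 FPKM with RANKL + Vit D + K. All RANKL libraries were above all others, and the PBS and vitamin libraries overlapped. The log2 fold change was 0.89 ± 0.12 (SE) for RANKL against PBS, a 1.85-fold rise with an adjusted p of 0.00837, and -0.90 ± 0.12 for the vitamins against RANKL, with an adjusted p of 0.00146. Against PBS the vitamin group differed by -0.01 on the log2 scale (adjusted p = 0.964). The fall under the vitamins passed the test in all 16 alternative analyses, and the rise with RANKL in 15, since without PBS replicate 3 its adjusted p was 0.0522. The other chaperones were low and did not pass in any comparison. Psmd5 had 4.68, 4.79 and 4.91 FPKM with PBS, 4.25, 5.71 and 4.76 with RANKL and 4.37, 6.30 and 4.78 with the vitamins, where the groups overlapped. Psmd9 had means of 1.79 ± 0.207, 1.94 ± 0.471 and 2.14 ± 0.368 FPKM (SD, n = 3) in the PBS, RANKL and RANKL + Vit D + K groups.

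**Figure D1:**
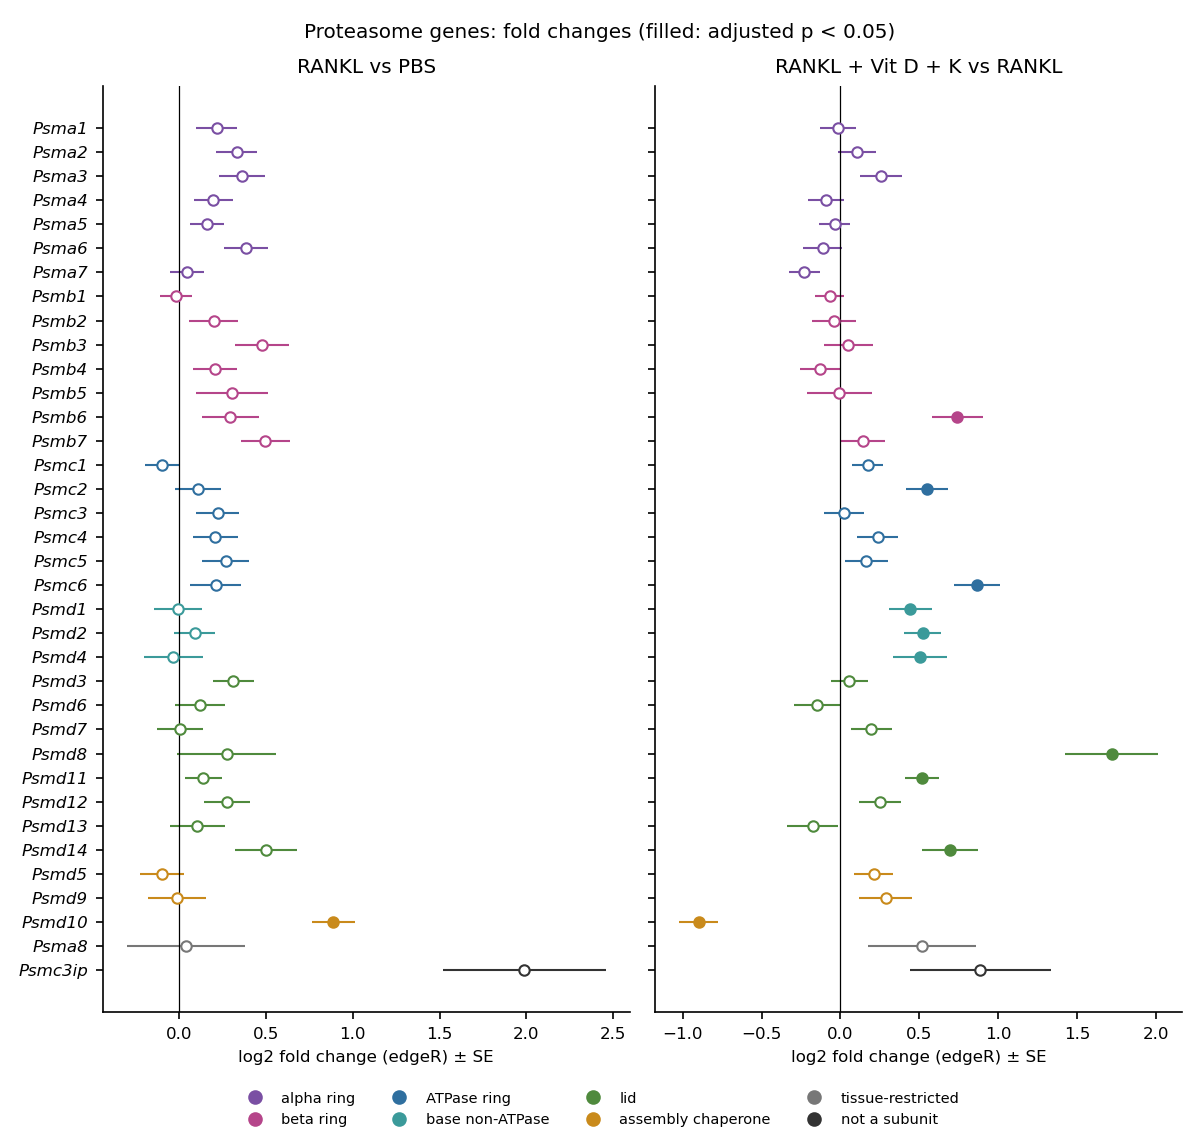
Log2 fold changes (edgeR) of the 36 genes for RANKL against PBS (left) and RANKL + Vit D + K against RANKL (right), with bars of ± 1 SE, colours by role and filled points where the adjusted p was under 0.05. On the left only Psmd10 is filled. On the right 9 genes are filled on the higher side, with Psmd8 farthest out at 1.72, and Psmd10 on the lower side at -0.90.

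The second comparison asked what the vitamins added to RANKL. Here 9 of the 36 genes rose (Psmb6, Psmc2, Psmc6, Psmd1, Psmd2, Psmd4, Psmd8, Psmd11 and Psmd14) and 1, Psmd10, fell. The background was high, as 16.4% of all genes tested were higher and 17.2% were lower, and 9 of 36 is 25.0%. The count of 9 fell to 4 without RANKL replicate 1 and to 5 with only the 2 groups compared. All genes higher then fell from 2796 to 1578 and 1934. The median log2 fold change of the 36 genes was 0.17, against -0.04 for all genes. In FPKM, 7 of them lay higher and 3 lower in every vitamin library than in every RANKL library, while 17.0% of all genes lay higher and 29.2% lower. Of all genes called in this comparison, 48.8% were higher, and with limma on log2(FPKM + 0.1), another model that also carries no TMM factor, 35.6% were higher. The median of all genes moved by -0.12 in that analysis and by -0.03 with limma on log2(FPKM + 1). The median of the 36 genes itself was 0.021 in both limma analyses, and 0.091 with edgeR without RANKL replicate 3. Relative to the median of all genes, it was 0.19 on log2(FPKM + 0.1), 0.09 on log2(FPKM + 1) and 0.21 with edgeR on all libraries.

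The rises were unevenly spread over the complex, although the difference between core and cap was not tested. Where 16.4% of all genes tested were higher, Psmb6 alone of the 14 genes of the 20S core rose with the vitamins, and the median log2 fold change was -0.03. Among the 17 genes of the 19S particle, 8 rose, none fell, and the median was 0.25. Within the 19S particle, the 3 non-ATPase subunits of the base all rose, as did 2 of the 6 ATPases and 3 of the 8 lid subunits. The 19S count fell with single libraries left out: 3 of the 17 genes (Psmc6, Psmd8 and Psmd11) passed without RANKL replicate 1, and 4 (the same with Psmd2) without RANKL replicate 3, RANKL + Vit D + K replicate 1 or RANKL + Vit D + K replicate 3. The count of all genes higher fell as well, from 2796 in the main fit to 1578, 1752, 1790 and 1629 in the same order.

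The lid subunit Psmd8 (chromosome 7, 29174188 to 29180673, minus strand) changed most. It had 36.4, 41.3 and 33.4 FPKM with PBS, 46.9, 56.2 and 43.7 FPKM with RANKL, and 189, 84.2 and 151 FPKM with the vitamins. Every vitamin library was above every other library, but library 2 was far below the others of its group. The rise over RANKL was 1.72 ± 0.29 (SE) on the log2 scale, or 3.29-fold, with an adjusted p of 0.00343. Psmd14 (chromosome 2, 61711694 to 61800376, plus strand), the deubiquitinase of the lid, had 12.2, 13.5 and 12.2 FPKM with PBS, 16.8, 26.6 and 15.7 FPKM with RANKL and 30.7, 27.3 and 26.9 FPKM with the vitamins. The nearest libraries, RANKL 2 and RANKL + Vit D + K 3, were almost level. The change over RANKL was 0.69 ± 0.18 with an adjusted p of 0.0173, and it did not pass with only the 2 groups compared, without RANKL replicates 1 or 3 or without RANKL + Vit D + K replicates 1 or 3 (adjusted p up to 0.0738 over the alternatives).

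Psmd11, a lid subunit that holds the lid and the core together, was low but tightly measured, with 7.92, 9.82 and 8.13 FPKM with RANKL and 11.0, 11.3 and 11.0 FPKM with the vitamins. The difference was 0.52 ± 0.11 on the log2 scale (SE, adjusted p = 0.00726). The other 5 lid genes did not pass, and their log2 fold changes ran from -0.18 (Psmd13) to 0.25 (Psmd12). The least changed was Psmd3, a structural subunit, with 9.99, 9.91 and 9.88 FPKM with PBS, 12.3, 16.0 and 12.2 with RANKL, and 11.1, 15.5 and 11.5 with the vitamins. Its RANKL and vitamin libraries overlapped, and the log2 fold change was 0.06 ± 0.12 with an adjusted p of 0.745.

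In the ATPase ring, Psmc6 (chromosome 14, 45329788 to 45349705, plus strand) had 17.7, 18.5 and 17.0 FPKM with PBS, 22.2, 25.5 and 19.7 FPKM with RANKL, and 40.0, 32.0 and 37.4 FPKM with the vitamins. The vitamin libraries were above all others, and the log2 fold change over RANKL was 0.86 ± 0.14 (SE, adjusted p = 0.00326). Psmc2, its neighbour in role, had 11.8, 16.2 and 11.6 FPKM with RANKL and 17.7, 16.7 and 17.3 FPKM with the vitamins, a log2 fold change of 0.55 ± 0.13 (adjusted p = 0.0133). Psmc2 did not pass with only the 2 groups compared, without RANKL replicates 1 or 3 or without RANKL + Vit D + K replicates 1 or 3, with adjusted p up to 0.0621 over the alternatives. The other ATPases did not pass. The least changed was Psmc3, with 29.4, 33.5 and 30.4 FPKM with PBS, 34.9, 49.3 and 35.2 with RANKL and 32.6, 42.8 and 34.2 with the vitamins, where the vitamin libraries overlapped both other groups and the log2 fold change over RANKL was 0.02 ± 0.13 (adjusted p = 0.900).

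Of the non-ATPase subunits of the base, Psmd2, the large scaffold that docks ubiquitin carriers, had the firmest rise. It had 53.0, 58.8 and 56.6 FPKM with PBS, 60.5, 76.1 and 59.6 FPKM with RANKL and 88.6, 82.5 and 80.7 FPKM with the vitamins, without overlap, and a log2 fold change of 0.52 ± 0.12 (SE, adjusted p = 0.0111). Without RANKL replicate 1 its adjusted p was 0.0531. For its partner scaffold Psmd1 and the ubiquitin receptor Psmd4 the RANKL and vitamin libraries overlapped. Psmd1 had 16.1, 16.5 and 15.6 FPKM with PBS, 15.6, 21.2 and 15.7 FPKM with RANKL and 23.1, 20.4 and 20.2 with the vitamins (0.44 ± 0.14, adjusted p = 0.0341). Psmd4 had 28.6, 30.6 and 26.4 FPKM with RANKL and 42.2, 29.2 and 36.8 with the vitamins (0.50 ± 0.17, adjusted p = 0.0476). Psmd1 passed in 4 and Psmd4 in 3 of the 16 alternatives. Psmd1 was lost without any 1 PBS library and without RANKL or RANKL + Vit D + K replicates 1 or 3 (adjusted p up to 0.127), and Psmd4 was lost without any 1 library other than RANKL + Vit D + K replicate 2 (adjusted p up to 0.154).

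**Figure D2:**
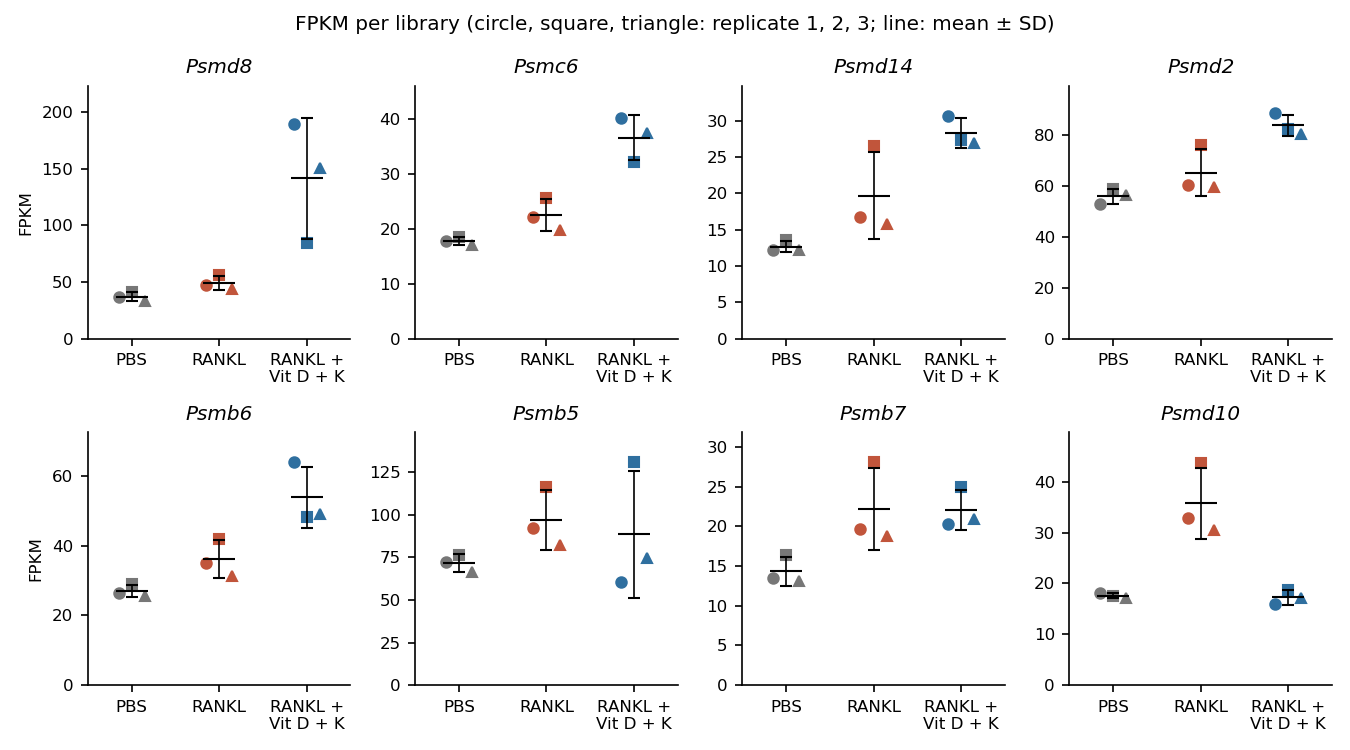
FPKM of 8 proteasome genes in each library (y axis from 0), with the mean and SD of the 3 libraries of each group as black lines. Psmd8, Psmc6, Psmd14, Psmd2 and Psmb6 lie above all RANKL libraries in every vitamin library, Psmb5 and Psmb7 overlap between these groups, and Psmd10 is high in the RANKL libraries alone.

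Of the catalytic subunits of the 20S core, Psmb6 passed the test and Psmb5 and Psmb7 did not, and the differences between them were not tested. Psmb6 (chromosome 11, 70525367 to 70527858, plus strand) had 26.4, 28.9 and 25.5 FPKM with PBS, 35.1, 42.0 and 31.4 FPKM with RANKL, and 64.0, 48.4 and 49.2 FPKM with the vitamins. Its vitamin libraries did not overlap with the others, and the log2 fold change over RANKL was 0.74 ± 0.16 (SE, adjusted p = 0.00939). Psmb5, which carries the chymotrypsin-like site, had 72.1, 76.6 and 66.5 FPKM with PBS, 92.2, 117 and 82.4 with RANKL and 60.4, 131 and 74.6 with the vitamins. Its vitamin libraries spanned the range of both other groups, with library 2 the highest of all 9, and the fitted change over RANKL was -0.01 ± 0.21 (adjusted p = 0.985), and between -0.30 (without RANKL + Vit D + K replicate 2) and 0.17 (without RANKL + Vit D + K replicate 1) with 1 library left out.

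Psmb7, which carries the trypsin-like site, had 13.5, 16.4 and 13.1 FPKM with PBS, 19.6, 28.1 and 18.8 with RANKL, and 20.3, 24.9 and 21.0 with the vitamins. The RANKL and vitamin libraries overlapped, and both lay above PBS. The change over RANKL was 0.14 ± 0.14 (SE, adjusted p = 0.467). Taken 1 gene at a time, an exact two-sided permutation test on log2(FPKM + 1) of 3 libraries against 3 gave p = 0.1 for Psmb6, the smallest it can give, p = 0.7 for Psmb5 and p = 1.0 for Psmb7.

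The other beta genes and all 7 alpha genes did not pass between the vitamins and RANKL, with log2 fold changes from -0.23 (Psma7) to 0.26 (Psma3). Psma3 had 9.56, 10.3 and 9.41 FPKM with PBS, 11.9, 17.5 and 11.9 with RANKL, and 14.4, 16.2 and 13.7 with the vitamins, so that RANKL 2 exceeded all vitamin libraries (0.26 ± 0.13, adjusted p = 0.170). Psma1, the least changed alpha gene, had 24.6, 31.1 and 28.3 FPKM with PBS, 33.3, 41.0 and 32.3 with RANKL, and 28.2, 37.5 and 29.8 with the vitamins (-0.02 ± 0.12, adjusted p = 0.933). The vitamin libraries overlapped those of both other groups. Psma7 and Psmb1 lay lower in every vitamin library than in every RANKL library. Psma7 had a log2 fold change of -0.23 ± 0.10 (adjusted p = 0.105) and Psmb1 had -0.07 ± 0.09 (adjusted p = 0.601).

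Against PBS, the vitamin group had more proteasome genes past the test. Of the 36 genes, 17 rose and none fell, a share of 47.2%, where 19.8% of all genes tested were higher and 21.0% were lower. The median log2 fold change was 0.40, against -0.04 for all genes. In FPKM, 19 genes lay higher in every vitamin library than in every PBS library and 1, Psmb1, lay lower, while 24.8% of all genes lay higher and 27.7% lower. This comparison shares its vitamin libraries with the second and its PBS libraries with the first, so the 3 are not independent. Of the 20S genes, 5 of 14 rose (Psma2, Psma3, Psmb3, Psmb6 and Psmb7), and of the 19S genes 11 of 17 rose. The lid genes Psmd3 and Psmd12 and the ATPase genes Psmc4 and Psmc5 were among the latter, with log2 fold changes of 0.37 ± 0.12, 0.53 ± 0.13, 0.45 ± 0.13 and 0.43 ± 0.14 (SE).

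The lowest p in this comparison was that of Psmc6, with a log2 fold change of 1.07 ± 0.15 (SE, adjusted p = 0.000829), and the largest change of a subunit was that of Psmd8, at 1.99 ± 0.30 (3.98-fold, adjusted p = 0.00122). For these 2 genes the fitted change from PBS to RANKL was 0.21 and 0.27, and neither passed in that comparison. Psma2, Psma3, Psmb3, Psmb7, Psmc4, Psmc5, Psmd3 and Psmd12 passed against PBS and not against RANKL. For Psma3, the step from PBS to RANKL was 0.36 and that from RANKL to the vitamins 0.26. For Psmb3 these steps were 0.48 and 0.05, and for Psmb7 they were 0.50 and 0.14. Some calls against PBS ended with 1 library left out: Psma2 and Psmc4 without PBS replicates 1 or 3, Psmb3 without any 1 PBS library, Psmc5 and Psmd3 without any 1 PBS library or RANKL replicate 1, and Psmd1 without any 1 PBS library or RANKL + Vit D + K replicate 1. Their adjusted p was up to 0.114 over the alternatives. Without PBS replicate 1, and also without PBS replicate 3, the count of rising genes was 11. In these fits 2469 and 2585 of all genes were higher, against 3368 in the main fit.

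The 2 names outside the somatic proteasome were near the bottom of the scale. Psma8 had 0.436, 0.427 and 0.237 FPKM with PBS, 0.307, 0.514 and 0.420 with RANKL, and 0.520, 0.553 and 0.512 with the vitamins, and passed in no comparison. Psmc3ip had 0.324, 0.211 and 0.184 FPKM with PBS, 0.651, 1.89 and 0.661 with RANKL, and 1.37, 2.55 and 1.43 with the vitamins. It was higher with the vitamins than with PBS by 2.87 ± 0.48 on the log2 scale (SE, adjusted p = 0.00202), and RANKL against PBS gave 1.99 ± 0.47 (adjusted p = 0.0528). Psmc3ip overlaps its neighbour Mlx over 385 bases on the opposite strand, and Mlx had 2339 to 3235 counts per library. It is not stated whether counting used the strand, so the Psmc3ip values are uncertain. Mlx itself had log2 fold changes of -0.13 for RANKL against PBS (adjusted p = 0.577) and 0.22 for the vitamins against PBS (adjusted p = 0.1455).

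Some subunit genes have copies or neighbours with which reads could be shared, and whether reads were shared was not tested. By sequence comparison, 12 of the 36 genes had at least 1 copy or overlapping transcript of 95% identity or more over at least 200 bases. The pseudogene Gm13835 is identical to Psma3 over 665 bases and held 45.3% as many counts as Psma3. A730017L22Rik held 15.6% as many as Psmd11 and had a log2 fold change of -0.55 between the vitamins and RANKL (adjusted p = 0.110), where Psmd11 rose. Psmb7 overlaps Nek6 on the other strand, and Nek6 rose by 1.59 on the log2 scale in the same comparison. Between the vitamins and PBS, where Psmb7 and Psma3 passed, Nek6 rose by 0.55 (adjusted p = 0.0188) and Gm13835 by 0.52 (adjusted p = 0.0394). For RANKL against PBS, Nek6 had a log2 fold change of -1.035 (adjusted p = 0.0103). No such copy was found for Psmd8, Psmc6, Psmb6 or Psmd14.

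Levels of different subunits can be compared only per length. The FPKM divides by a length close to the union of all annotated exons, which for the 31 subunits was 1.0 to 3.36 times the length of the principal mRNA. After scaling to that mRNA, a step chosen after the data were seen that assumes all reads came from it, the group means with PBS ran from 13.3 FPKM (Psma3) to 78.3 FPKM (Psma7), a range of 5.87-fold. With RANKL the range was 18.8 (Psma3) to 98.1 FPKM (Psmd8), or 5.20-fold. With the vitamins it was 20.2 (Psma3) to 283 FPKM (Psmd8), or 14.0-fold. The next highest level with the vitamins was that of Psmb6, at 126 FPKM. Psmd8 thus stood at 74.2 FPKM with PBS, among neighbours such as Psmb5 (71.7) and Psmd2 (76.5), and above every other subunit with the vitamins.

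**Figure D3:**
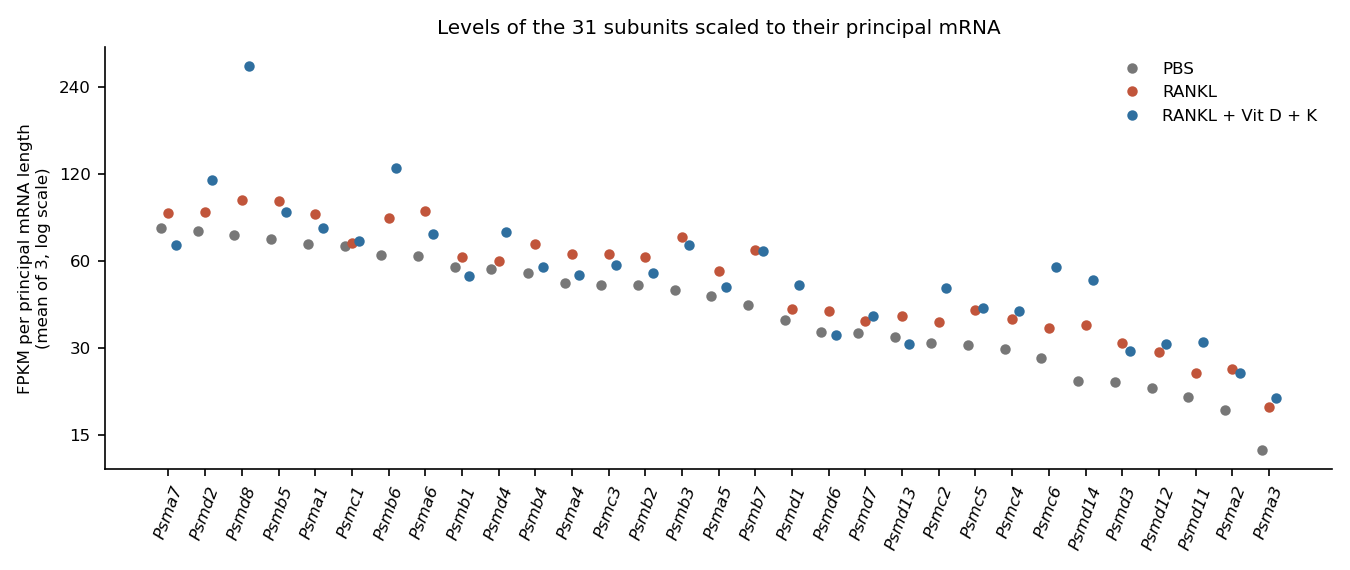
Group means (n = 3) of FPKM scaled to the principal mRNA, on a log axis, for the 31 subunits ordered by their level with PBS. All PBS and RANKL points lie between 13.3 and 98.1 FPKM, and the vitamin points of Psmd8 (283), Psmb6 (126) and Psmd2 (114.5) lie above that range.

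Libraries of a group differed in a shared way. In CPM after TMM scaling, RANKL 2 was the highest RANKL library for 34 of the 36 genes, where it was the highest for 35.7% of all genes. RANKL + Vit D + K 2 was the highest vitamin library for 21 of the 36 genes (58.3%) and for 44.5% of all genes. On the same scale, RANKL + Vit D + K 1 was the highest for 14 of the 36 genes and for 34.7% of all genes. RANKL + Vit D + K 2 was the lowest for 13 of the 36 and for 38.6% of all genes. For each of the 9 genes that rose over RANKL, RANKL + Vit D + K 1 was the highest and RANKL + Vit D + K 2 the lowest. In FPKM, which carries no TMM factor, this order did not hold for Psmd11, where library 2 was the highest, nor for Psmd1, Psmd2 and Psmd14, where library 3 was the lowest. The median log2 level of the 17 genes of the 19S particle over the PBS mean was 0.60, 0.44 and 0.39 in RANKL + Vit D + K 1, 2 and 3, and that of the 14 genes of the 20S core was 0.13, 0.38 and 0.14. In library 2 of that group the particles thus lay close together, and in libraries 1 and 3 the 19S genes lay higher.

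In the RANKL libraries the medians were 0.07, 0.33 and 0.06 for the 19S genes and 0.18, 0.40 and 0.13 for the 20S genes. The sum of FPKM over the 19S genes divided by that over the 20S genes was 0.988, 0.951 and 1.00 with PBS, 0.895, 0.902 and 0.895 with RANKL, and 1.501, 1.01 and 1.35 with the vitamins. Without Psmd8 it was 0.898, 0.859 and 0.915 with PBS, 0.803, 0.814 and 0.804 with RANKL, and 1.08, 0.867 and 1.02 with the vitamins. The vitamin libraries were above all RANKL libraries either way, but without Psmd8 library 2 fell among the PBS libraries. Without RANKL + Vit D + K replicate 2, 9 of the 36 genes rose over RANKL and 3 fell, where 3773 and 4486 of all genes did. Without RANKL replicate 2, 11 rose and 1 fell, where 2514 and 2603 of all genes did. The count of rising genes was 4 without RANKL replicate 1 and 5 without RANKL replicate 3, RANKL + Vit D + K replicate 1 or RANKL + Vit D + K replicate 3. In the same order, 1578, 1752, 1790 and 1629 of all genes rose, against 2796 in the main fit. The TMM factors of the vitamin libraries were 0.891, 1.06 and 0.943, and the mitochondrial share of counts was 2.54% to 3.26% over all libraries. The part of these library differences in the results was not tested.

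**Figure D4:**
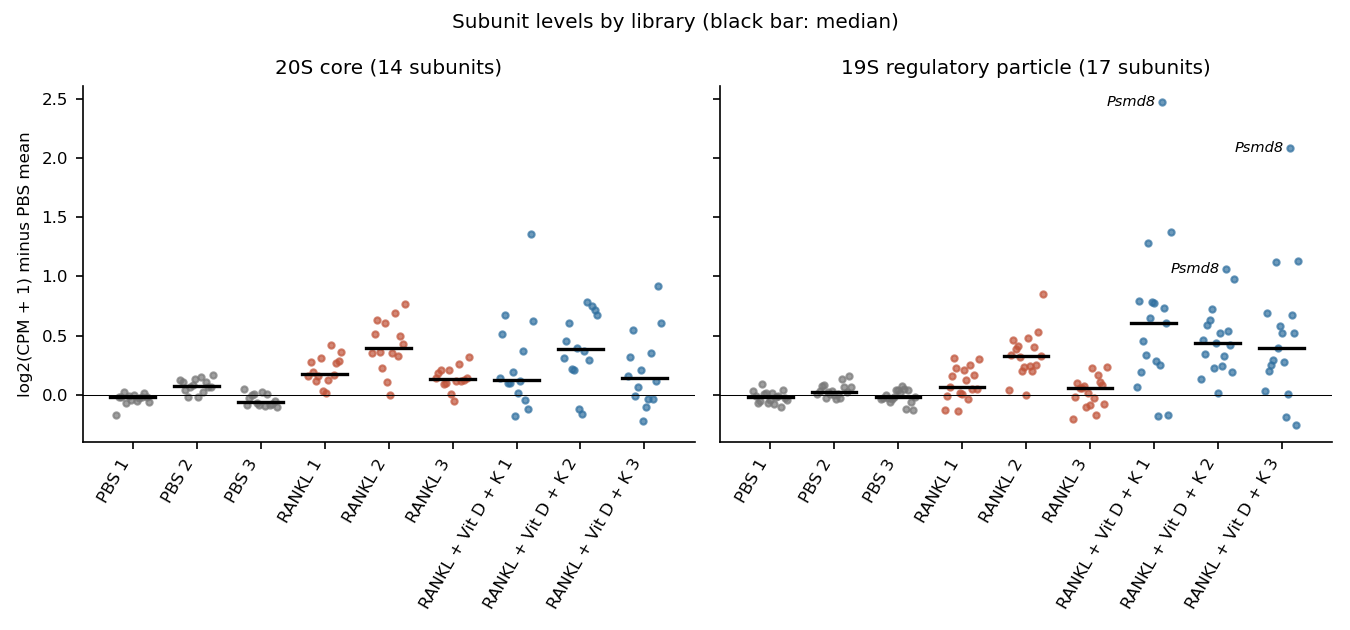
Log2(CPM + 1) after TMM scaling, minus the PBS mean of the same gene, in each library for the 14 genes of the 20S core (left) and the 17 genes of the 19S particle (right), with black bars at the medians. RANKL 2 stands above RANKL 1 and 3 in both panels. The 19S genes have medians of 0.60, 0.44 and 0.39 in the vitamin libraries, with Psmd8 uppermost in libraries 1, 2 and 3.

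The immunoproteasome subunits Psmb9, Psmb10 and Psmb8 can take the places of Psmb6, Psmb7 and Psmb5, and the vitamin group had less of all 3 than the RANKL group. Psmb9 had 5.99, 6.25 and 5.65 FPKM with PBS, 9.11, 8.30 and 8.66 with RANKL, and 1.98, 4.64 and 2.19 with the vitamins. Psmb10 had 24.6, 24.0 and 20.0 FPKM, 25.9, 23.6 and 29.6 FPKM, and 3.49, 11.6 and 5.04 FPKM in the same order. Psmb8 had 17.9, 17.8 and 16.8 FPKM, 23.0, 21.1 and 22.1 FPKM, and 10.6, 18.3 and 12.1 FPKM. All vitamin libraries were below all RANKL libraries for these 3 genes, with log2 fold changes of -1.45 ± 0.25, -1.88 ± 0.34 and -0.57 ± 0.15 (SE; adjusted p = 0.00336, 0.00409 and 0.0181). With the interferon-induced cap genes Psme1 and Psme2, 5 of 5 genes of that list fell against RANKL and 4 of 5 against PBS, where 17.2% and 21.0% of all genes tested were lower.

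The ratio of each immunoproteasome gene to the standard subunit it replaces was formed within each library. For Psmb9 to Psmb6 it was 0.227, 0.216 and 0.221 with PBS, 0.259, 0.198 and 0.276 with RANKL, and 0.0310, 0.0960 and 0.0445 with the vitamins. For Psmb10 to Psmb7 it was 1.81, 1.46 and 1.53, then 1.32, 0.838 and 1.57, then 0.172, 0.466 and 0.240. For Psmb8 to Psmb5 it was 0.249, 0.232 and 0.252, then 0.250, 0.181 and 0.268, then 0.175, 0.140 and 0.162. Every vitamin library was below every other library for all 3 ratios. The mean log2 ratio differed between the vitamins and RANKL by -2.25, -2.17 and -0.54, each with an exact two-sided permutation p of 0.1 (0.1 after Benjamini-Hochberg adjustment over these 3), the smallest that 3 libraries against 3 can give.

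**Figure D5:**
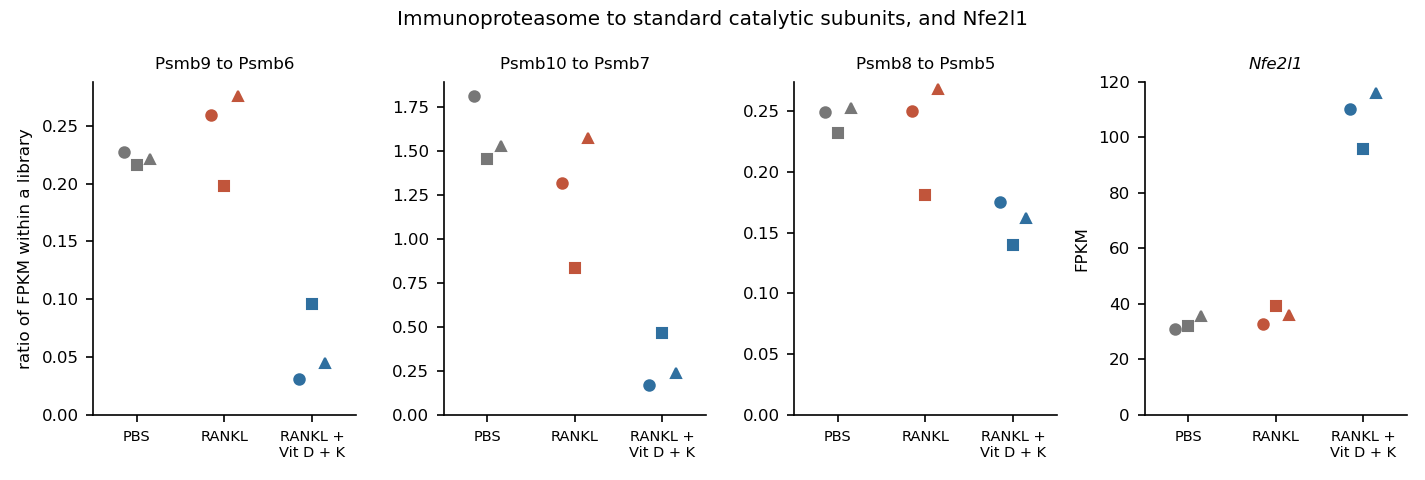
Ratio of FPKM of each immunoproteasome gene to the standard catalytic gene it replaces in each library (first 3 panels), and FPKM of Nfe2l1 (last panel), with axes from 0. The vitamin libraries lie below all PBS and RANKL libraries in the ratios and above them, at 95.8 to 116 FPKM, for Nfe2l1.

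The genes around the proteasome were described from lists. Of 10 genes tested around NRF1, 7 rose with the vitamins over RANKL (Nfe2l1, Nfe2l2, Mafk, Maff, Mafg, Sel1l and Syvn1) and none fell, where 16.4% of all genes tested were higher and 17.2% lower. With RANKL against PBS, Mafg fell and no other gene of the list passed. Nfe2l1 itself had 31.1, 32.2 and 35.8 FPKM with PBS, 33.0, 39.2 and 36.0 with RANKL, and 110, 95.8 and 116 with the vitamins. The vitamin libraries were far above the rest, and the log2 fold change over RANKL was 1.73 ± 0.14 (SE, adjusted p = 0.000259). Ddi2, the protease that cleaves NRF1 into its active form, had 24.3, 22.7 and 26.1 FPKM with RANKL and 20.1, 18.5 and 22.5 with the vitamins (-0.11 ± 0.14, adjusted p = 0.587).

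Of 17 other regulators and assembly factors tested, 9 rose with the vitamins over RANKL and 1, Pomp, fell, against the same 16.4% and 17.2% of all genes, while none passed with RANKL against PBS. Adrm1, the ubiquitin receptor of the 19S base that is not named Psmd, had 9.90, 11.5 and 9.26 FPKM with RANKL and 12.9, 13.7 and 13.0 with the vitamins, a rise of 0.52 ± 0.10 on the log2 scale (SE, adjusted p = 0.00561). Sem1, the other 19S subunit with another name, had 20.2, 21.5 and 19.4 FPKM with RANKL and 15.9, 17.4 and 14.8 with the vitamins, without overlap, and did not pass (-0.19 ± 0.10, adjusted p = 0.181). Pomp, which helps the beta rings of newly made cores to form, had 17.9, 18.6 and 15.1 FPKM with RANKL and 7.57, 12.9 and 7.997 with the vitamins, and fell by 0.72 on the log2 scale (± 0.16, adjusted p = 0.00855). Psmg2, a chaperone of the alpha ring named here with its values known, had 4.45, 7.70 and 4.92 FPKM with RANKL and 9.02, 9.77 and 7.72 with the vitamins, and rose by 0.79 ± 0.20 (adjusted p = 0.0156). The caps of Psme3 and Psme4 and the inhibitor Psmf1 did not pass against RANKL: Psme3 gave 0.33 ± 0.12 (adjusted p = 0.0649), Psme4 gave 0.23 ± 0.13 (0.195) and Psmf1 gave -0.11 ± 0.13 (0.550).

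The sequences before the starts were searched in all RefSeq windows of GRCm38.p6, each 250 bases before to 50 bases after a start. Of the 36 genes, 29 had a window, 31 windows in all. Psmb1, Psmb2, Psmb7, Psmc3, Psmd3, Psmd7 and Psma8 were not among them. The ARE core TGACNNNGC on either strand was present in 16.1% of the 31 windows and in 12.4% of all 32851 windows. It was found for Psmb5, Psmb6, Psmc6, Psmd9 and Psmd12, thus for 2 of the 9 genes that rose over RANKL. Counted from the RefSeq start of the full window, it lies at -9 to -1 in Psmb6, at -47 to -39 in Psmb5 and at -227 to -219 in Psmc6. The shortened sequences of Psmb5 and Psmc6 printed above end before that start. Psmb5, whose RANKL and vitamin libraries overlapped, and Psmb6, which rose, both carry it, and Psmd8 does not.

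The GC box GGGCGG, the site of SP family factors, was in 58.1% of the windows of the proteasome genes and in 35.7% of all windows, and in 7 of the 9 rising genes. The one of Psmd8 lies at -59 to -54. The CCAAT box was in 38.7% and 37.4% of the windows. A base could count towards more than 1 of these motifs, no test was made, and a match is only a run of letters.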

How the data were processed

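RNA of 9 BMDM libraries (3 groups of 3, taken from the labels) was selected for poly(A) and sequenced. The authors deposited 1 table with whole-number counts per gene, not normalized, and FPKM values scaled by gene length and library. The submitters' processing notes name cutadapt 1.9, HISAT2 2.0.4, StringTie 1.3.4d, edgeR and the build hg38. The gene IDs are of mouse, and their coordinates were identical to GENCODE M21 (GRCm38) for 90.5% of 28294 matched IDs, so coordinates are given as in the table. The handling of strand and shared reads is not given in the sources used here. Columns of the authors' own fold changes and p-values were not used.

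Counts were tested in R 4.3.3 with edgeR 4.0.16 (filterByExpr, TMM, quasi-likelihood test, all 9 libraries fitted together), and p was adjusted by Benjamini-Hochberg over the 17002 genes kept, with a threshold of 0.05. The SE is the size of the log2 fold change divided by the square root of F. Alternatives were DESeq2 1.42.0, RLE factors, no filter, limma 3.58.1 on log2(FPKM + 1) and log2(FPKM + 0.1), only the 2 groups compared, the replicate block and each library left out. The tests were run on simulated counts first. Values in every library are given for the catalytic subunits, for the most and least changed gene of each role (vitamins against RANKL), for the lowest p of each comparison and for a short list of related genes. Other genes that passed were added with their values known, and genes of the lists that are not named are given only by counts. The 36 genes, the lists and the tests were chosen with earlier results of these data known. Same-numbered libraries of PBS and RANKL had correlations of 0.122, 0.219 and 0.155 over genes in their deviations from the group mean. Libraries of different numbers were not compared and the labels name no pairs, so pairing was not established. The main fit had no block. With the replicate block, Psmd10 remained the 1 gene called for RANKL against PBS.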

Additional observations from a re-analysis of the deposited data

How the results depend on the processing

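Over the 16 alternatives, no called proteasome gene changed sign, and 5 of the 10 calls of the vitamins against RANKL (Psmb6, Psmc6, Psmd8, Psmd11 and Psmd10) and 11 of the 17 against PBS passed in each. For RANKL against PBS, 3 proteasome genes were higher with DESeq2 and 3 with only the 2 groups compared. The count of all genes higher was 1056 with DESeq2, 605 with limma on log2(FPKM + 0.1) and 1034 with only the 2 groups, and of all genes lower 643 with DESeq2, 122 without the filter and 702 with only the 2 groups. Limma on log2(FPKM + 1) and log2(FPKM + 0.1) gave a median of the proteasome genes of 0.32 and 0.33. For the vitamins against RANKL, limma gave a median of 0.021 with either pseudocount (0.02104 for 1 and 0.02136 for 0.1) and 2 genes lower, and the 2 groups alone gave 5 proteasome genes higher and 1912 of all genes lower. Against PBS, limma on log2(FPKM + 1) gave a median of 0.28. The limma fits carry no TMM factor, and the causes were not tested.

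With 1 library left out, the proteasome genes higher with RANKL than with PBS numbered 0 to 4, their median was 0.12 to 0.31, and all genes higher and lower numbered 96 to 972 and 30 to 931. For the vitamins against RANKL, 4 to 11 proteasome genes were higher and 1 to 3 lower, with a median of 0.091 to 0.27, and 1578 to 3773 of all genes were higher and 1621 to 4486 lower. Against PBS, 11 to 18 were higher, with a median of 0.30 to 0.48, and 2469 to 4143 of all genes were higher and 2297 to 4725 lower. Psmb5, which was not called, ranged from -0.30 to 0.17 and changed sign to 0.10 without RANKL replicate 2, 0.17 without RANKL + Vit D + K replicate 1 and 0.08 without RANKL + Vit D + K replicate 3.

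With the replicate block, 7 proteasome genes were higher and 1 lower for the vitamins against RANKL (Psmd1 and Psmd4 did not pass), and 17 were higher against PBS. Same-numbered vitamin libraries had correlations of 0.00625, 0.0428 and 0.107 with those of RANKL and -0.0216, 0.0217 and 0.0237 with those of PBS. Pairing was not established there either. At 3 libraries per group, changes of the size seen for most subunits can be missed, and values across genes depend on the annotated lengths.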

Other observations

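The supply side of the proteasome was also measured. Of 17 genes tested for ubiquitin, its activating enzymes and the shuttles that carry tagged proteins, 9 rose with the vitamins over RANKL, among them Ubb, Sqstm1, Zfand2a, Zfand5 and Rad23b, and none fell, where 16.4% of all genes tested were higher and 17.2% lower. The median log2 fold change of the list was 0.33, and that of all genes was -0.04. With RANKL against PBS none passed. The polyubiquitin gene Ubb had 292, 284 and 301 FPKM with RANKL and 528, 354 and 475 with the vitamins, so that every vitamin library was above every RANKL library. The log2 fold change was 0.79 ± 0.18 (SE, adjusted p = 0.0115, edgeR). The largest change of that list was that of Sqstm1, which encodes p62, a receptor that brings ubiquitin-tagged cargo to autophagy, at 2.74 ± 0.34 (adjusted p = 0.000956). In FPKM, RANKL + Vit D + K 2 was the lowest vitamin library for Ubb and Sqstm1. These genes were singled out after their values were seen.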
